A study of Mus musculus with 10 samples.

Results

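The genes described here are 4 ion channel genes that bear on the excitability of the muscle surface membrane, *Scn4a*, *Scn8a*, *Scn4b* and *Clcn1*. They were chosen by gene name, and all 4 are in the table of 35275 genes. *Scn4a* encodes the pore-forming alpha subunit of the voltage-gated sodium channel of adult skeletal muscle, *Scn8a* an alpha subunit best known from neurons, *Scn4b* an accessory beta subunit, and *Clcn1* the chloride channel ClC-1.

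An action potential in a muscle fibre starts when voltage-gated sodium channels open and sodium enters. Other genes of the alpha subunit family serve other tissues, and the form encoded by *Scn4a* predominates as skeletal muscle matures. Chloride flow through ClC-1 holds the resting fibre steady, and loss of ClC-1 causes myotonia, in which fibres keep firing after a stimulus.

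Transcripts were measured by RNA-seq in C2C12 cells, an established line of mouse myoblasts that fuse into myotubes when serum is reduced. One group of 5 libraries came from cells before differentiation, kept in DMEM with 10% fetal bovine serum, and the other group of 5 from differentiating cells in DMEM with 2% horse serum, which the study sampled on day 6. The labels name no altered gene and no drug in either group, and every library is from this 1 line, grown as C2C12 cells alone. The comparison asks which transcripts changed in level between proliferating myoblasts and cells on day 6. The labels number the libraries 1 to 5 in each group and do not say whether each was a culture of its own. What the p-values measure is therefore the variation among these libraries, which may be technical.

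Library totals ran from 16288532 to 21622527 counts before differentiation and from 15367909 to 20509280 on day 6. The day 6 libraries did not all stand at the same level of muscle gene expression. The 8 skeletal muscle markers summed to 10410 and 10740 CPM (counts relative to the scaled library total) in day 6 replicates 1 and 2, and to 7189 to 7871 CPM in replicates 3, 4 and 5, against 20.1 to 23.6 CPM before differentiation. For the members, and for several of the sodium channel and ClC genes whose call or size of change depended on these libraries, values without them are given below. *Myh3* was the largest part of the skeletal muscle sum. It stood at 5485 and 5683 CPM in day 6 replicates 1 and 2 and at 3210 to 3516 CPM in the others. *Myog* did not follow this order, at 709 and 719 CPM in replicates 1 and 2 and 706 to 871 CPM in the others. Each of the other markers was also higher in replicates 1 and 2. All 8 skeletal muscle markers passed the test as higher on day 6. All 4 proliferation markers passed as lower, their sum going from 1641 to 1810 CPM down to 90.2 to 130 CPM. Of 13085 genes with enough counts to test, 5247 (40.1%) were higher and 5197 (39.7%) lower on day 6 at an adjusted p under 0.05, and 9042 (69.1%) had CPM values that did not overlap between the groups. Over all genes tested the log2 fold change had a median of 0.0147.

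Promoter sequence is shown for *Scn4a* and *Clcn1*, the members with counts in both conditions. The RefSeq windows (GRCm38.p6, the build the files call mm10) run from 250 bases before to 50 bases after the annotated start. The *Scn4a* window lies on the minus strand at chr11:106349341-106349640, inside the span that the deposited table gives for the gene, and the *Clcn1* window lies on the plus strand at chr6:42286435-42286734, at the table's start of the gene. Capitals mark E-boxes (CANNTG, a motif that reads the same on both strands), the kind of site that myogenic regulatory factors bind.
Scn4a: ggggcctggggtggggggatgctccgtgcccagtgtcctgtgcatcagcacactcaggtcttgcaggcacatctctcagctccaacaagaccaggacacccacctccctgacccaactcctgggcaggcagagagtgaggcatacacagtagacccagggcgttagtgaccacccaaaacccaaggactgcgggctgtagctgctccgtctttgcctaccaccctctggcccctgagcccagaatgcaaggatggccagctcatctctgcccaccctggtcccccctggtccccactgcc
Clcn1: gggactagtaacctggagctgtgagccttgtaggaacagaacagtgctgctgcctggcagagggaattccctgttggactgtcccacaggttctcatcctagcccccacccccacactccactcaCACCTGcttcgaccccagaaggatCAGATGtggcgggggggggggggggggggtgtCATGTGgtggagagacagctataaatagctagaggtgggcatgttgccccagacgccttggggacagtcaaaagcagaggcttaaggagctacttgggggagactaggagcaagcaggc
The *Clcn1* window held 3 E-boxes, whose first bases lie at -125, -101 and -69 from the start site. It also held 1 match to the MEF2 motif, CTATAAATAG, left in lower case above, with its first base at -51 and with the letters of a TATA box inside it. The *Scn4a* window held no E-box and no MEF2 match. An E-box was present in 72.3% of 32851 RefSeq mouse windows of the same 300 bases and a MEF2 match on either strand in 3.19%, so that the E-boxes of *Clcn1* are common letters and the MEF2 match is a rarer one. These matches are a description of the letters only.

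*Scn4a* (ENSMUSG00000001027, mm10 chr11:106318592-106353288, minus strand) went from almost no reads to a clearly measured transcript. Before differentiation its counts were 2, 6, 4, 1 and 0 in replicates 1 to 5, or 0.110, 0.323, 0.189, 0.0605 and 0 CPM. On day 6 they were 2731, 2560, 1608, 1419 and 1402, or 135.1, 136.7, 98.0, 86.6 and 90.5 CPM. Every day 6 library was far above every library before differentiation, and replicates 1 and 2, those with the most skeletal muscle marker RNA, were the highest of day 6. Mean levels were 0.136 ± 0.125 CPM before and 109 ± 24.5 CPM on day 6 (SD, n = 5 each). *Scn4a* rose by 9.52 on the log2 scale (SE 0.321, adjusted p = 2.35e-10, edgeR quasi-likelihood test). The level before differentiation rests on 13 counts in all, and the ratio of the summed counts, each over its group's scaled total, was 783-fold, with a 95% counting interval of 458 to 1470. Without day 6 replicates 1 and 2 the log2 fold change was 9.28, and without replicates 3, 4 and 5 it was 9.88. In bulk RNA, more cells that make a transcript and more RNA per cell cannot be told apart.

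**Figure D1:**
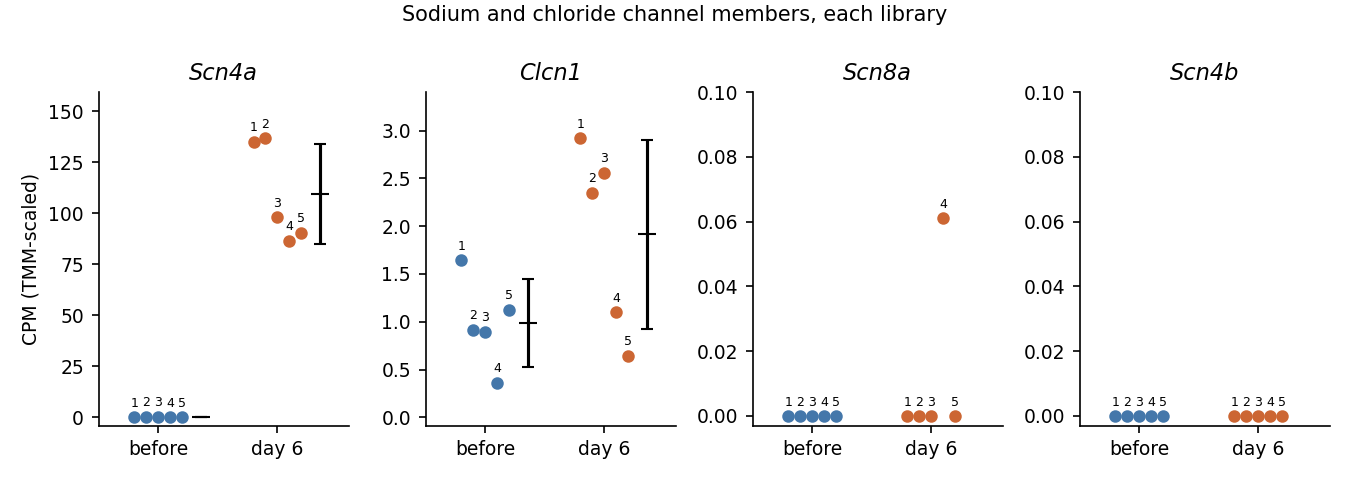
Level of the 4 members in CPM (y axis, linear, 1 scale per gene) in each of the 5 libraries before differentiation and the 5 on day 6, with the replicate number above each point. Black bars for *Scn4a* and *Clcn1* are the mean ± SD. *Scn4a* runs from 86.6 to 136.7 CPM on day 6 against at most 0.323 CPM before, the groups overlap for *Clcn1*, *Scn8a* has 1 count in day 6 replicate 4, and *Scn4b* has none.

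To compare *Scn4a* with the other alpha subunits, the deposited FPKM values were used, which divide by gene length. *Scn4a* stood at 20.2, 20.3, 14.8, 12.98 and 13.8 FPKM in day 6 replicates 1 to 5, and at 0 to 0.0491 FPKM before differentiation. As a share of the summed FPKM of all 10 alpha subunits, *Scn4a* made up 0.471% ± 0.440 before differentiation and 52.3% ± 3.25 on day 6 (SD, n = 5 each). The difference of 51.8 percentage points had an exact two-sided permutation p of 0.00794, the smallest that 5 against 5 libraries can give. This permutation p was 0.0159 after Benjamini-Hochberg adjustment over the 4 values tested in this way. These 4 include the share of *Scn4b* among the beta subunits, which was 0% in every library and so could show no difference. The share was 54.7% and 56.7% in day 6 replicates 1 and 2 and 48.8% to 50.9% in the other three, against 0% to 1.15% before differentiation. The difference in share was 49.6 percentage points without day 6 replicates 1 and 2 and 55.2 without replicates 3, 4 and 5, with exact permutation p of 0.0179 and 0.0476, the smallest that these numbers of libraries allow. The sum itself went from 4.39 ± 0.320 to 31.2 ± 4.87 FPKM.

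**Figure D2:**
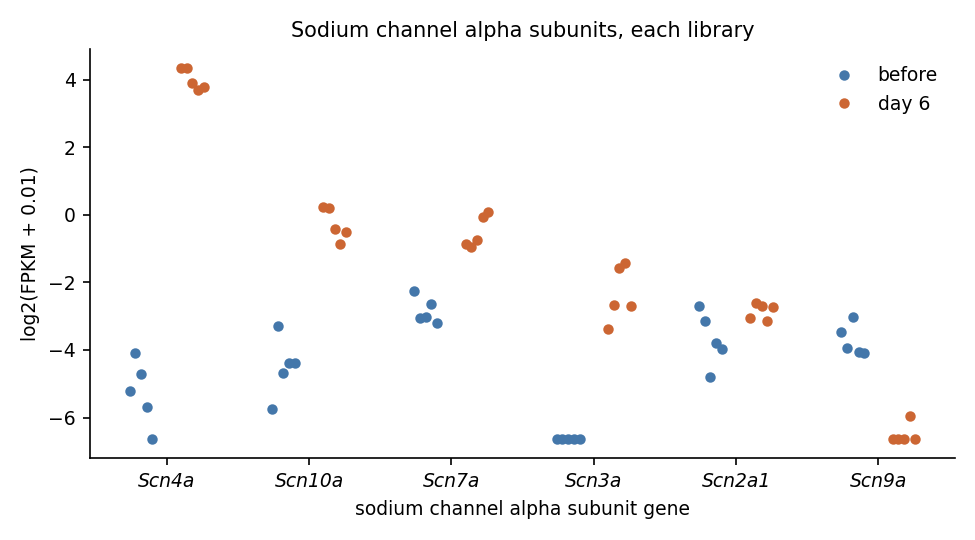
Level of 6 sodium channel alpha subunit genes as log2(FPKM + 0.01) (y axis) in each library before differentiation and on day 6, 1 point per library. *Scn4a* runs from 12.98 to 20.3 FPKM on day 6, above the other genes drawn, and from 0 to 0.0491 FPKM before, and *Scn9a* is the gene drawn that is lower on day 6.

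*Scn8a* (ENSMUSG00000023033, mm10 chr15:100870683-101045929, plus strand) was at the edge of detection. None of its reads appeared before differentiation and 1 count was found on day 6, in replicate 4, and it did not have enough counts to test. A count of 0 over the 5 libraries before differentiation allows a level of up to 0.0328 CPM, or 0.00292 FPKM, and the exact 95% upper limit of the single count on day 6 is 0.0639 CPM. These limits cover counting error only. *Scn4a* on day 6 therefore stood above *Scn8a* in every library, and no difference in *Scn8a* between the conditions was detectable at this depth.

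The other alpha subunits described here stayed at low levels. Of the 10 alpha subunit genes 6 could be tested, 5 of them rose and none fell, beside 40.1% and 39.7% of all genes tested. The median log2 fold change of those tested was 3.40 (also 3.40 with *Scn3a* at its lower bound) beside 0.0147 over all genes. *Scn10a*, known from sensory neurons, rose from 0.263 to 5.52 CPM, a log2 fold change of 4.37 (SE 0.369, adjusted p = 6.14e-09). Without day 6 replicates 1 and 2 that change was 3.98, and without replicates 3, 4 and 5 it was 4.84. *Scn7a*, which encodes the sodium-sensing channel Nax, rose from 0.977 to 5.34 CPM, a log2 fold change of 2.44 (SE 0.264, adjusted p = 1.28e-07). Unlike *Scn4a*, *Scn7a* was highest in day 6 replicates 4 and 5, at 7.08 and 7.55 CPM, against 3.79 to 4.27 CPM in the other three. Its log2 fold change was 2.70 without day 6 replicates 1 and 2 and 2.03 without replicates 3, 4 and 5. *Scn3a*, a brain form that is most abundant before birth, went from 0 to 173 counts in all, at least 60.4-fold higher (adjusted p = 8.02e-06, edgeR quasi-likelihood test), taking as the floor 3 counts over a group's 5 libraries. It was highest in day 6 replicates 3 and 4, at 3.11 and 3.48 CPM, against 0.841 to 1.44 CPM in the other day 6 libraries.

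*Scn2a1*, another brain form, had 62 counts before and 101 on day 6 and did not pass the test, with a log2 fold change of 0.76 (SE 0.367, adjusted p = 0.0664). It did pass without replicate 1 of the cells before differentiation, at 1.09 (adjusted p = 0.0129, edgeR). *Scn9a*, known from sensory neurons, went the other way, with 64 counts before and 1 on day 6. It had too few counts for the main test, and the ratio of the level before to that on day 6 was 61.1 with a 95% counting interval of 10.6 to 2450. *Scn1a* and *Scn11a* had no counts. In FPKM the day 6 levels below *Scn4a* were 0.853 for *Scn10a*, 0.723 for *Scn7a*, 0.212 for *Scn3a* and 0.130 for *Scn2a1*. The ranges of *Scn10a* and *Scn7a*, and of *Scn3a* and *Scn2a1*, overlapped, while *Scn7a* was above *Scn3a* in all libraries.

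*Scn4b* (ENSMUSG00000046480, mm10 chr9:45138437-45154152, plus strand) had no count in any of the 10 libraries. That allows up to 0.0328 CPM before differentiation and 0.0344 CPM on day 6, or 0.00667 and 0.00690 FPKM. Its share of the summed FPKM of the 4 beta subunits was 0% in every library. Of the other beta subunits, *Scn3b* went from 0 to 56 counts in all, at least 19.6-fold higher, with 0.387 to 0.792 CPM in the day 6 libraries, too few to test, and *Scn2b* had no counts. At this depth *Scn4b* was thus not detectable in either condition.

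*Clcn1* (ENSMUSG00000029862, mm10 chr6:42286685-42315756, plus strand) stayed at a low level. Before differentiation it had 30, 17, 19, 6 and 19 counts, or 1.64, 0.916, 0.898, 0.363 and 1.13 CPM. On day 6 it had 59, 44, 42, 18 and 10 counts, or 2.92, 2.35, 2.56, 1.10 and 0.646 CPM. Day 6 replicates 1, 2 and 3 were above every library before differentiation, but replicates 4 and 5 lay within the range of that group. Means were 0.989 ± 0.462 and 1.91 ± 0.986 CPM (SD, n = 5 each), a log2 fold change of 0.96 (SE 0.401) with an adjusted p of 0.0375 in edgeR's quasi-likelihood test. So *Clcn1* passed the threshold narrowly and *Scn4a* by a wide margin, and the 2 testable members were called in the direction that 40.1% of all genes tested were.

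The call for *Clcn1* rests on single libraries. In edgeR the adjusted p was 0.0731, 0.077, 0.0888 and 0.0575 without replicate 2, 3, 4 or 5 before differentiation, and 0.103, 0.0668 and 0.0803 without replicate 1, 2 or 3 of day 6, with log2 fold changes between 0.76 and 1.00. Without day 6 replicates 1 and 2 the log2 fold change was 0.55 (adjusted p = 0.226, edgeR), and without day 6 replicates 3, 4 and 5 it was 1.44 (adjusted p = 0.000812). The 3' end of *Clcn1* shares 445 bases (mm10 chr6:42315312-42315756) with *Fam131b* on the opposite strand. *Fam131b* fell from 22.2 to 12.2 CPM, a log2 fold change of -0.87 (adjusted p = 7.12e-07, edgeR). Whether reads were counted by strand is not stated, so reads from the shared bases cannot be assigned with certainty, and their part in the *Clcn1* values was not tested.

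Among the ClC genes *Clcn1* was one of the lowest in both conditions. The family was led by *Clcn5*, an endosomal chloride and proton exchanger, at 28.0 FPKM before and 26.1 FPKM on day 6, against 0.281 and 0.534 FPKM for *Clcn1*. The share of *Clcn1* in the summed FPKM of the 9 genes was 0.394% ± 0.185 before and 0.655% ± 0.346 on day 6. This difference of 0.261 percentage points was not larger than the spread between libraries (exact two-sided permutation p = 0.167, adjusted 0.223). It was 0.0821 percentage points without day 6 replicates 1 and 2 (exact p = 0.643) and 0.53 without replicates 3, 4 and 5 (exact p = 0.0476). The latter is the smallest p that these numbers of libraries allow, and neither p was adjusted. The skeletal muscle alpha subunit of the sodium channel thus had the highest mean FPKM of its family on day 6, while the skeletal muscle ClC channel ranked 7 of 9.

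**Figure D3:**
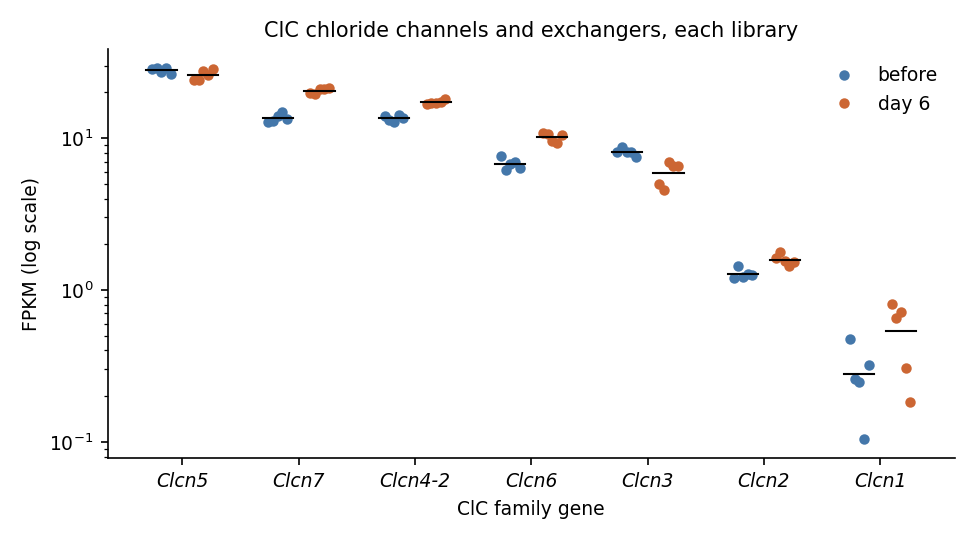
FPKM of 7 ClC family genes (y axis, log scale) in each library before differentiation and on day 6, with the mean as a black line. *Clcn5* leads at 24.0 to 29.0 FPKM in both conditions and *Clcn1* lies lowest, at 0.104 to 0.473 FPKM before and 0.184 to 0.811 FPKM on day 6.

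Of the 9 ClC genes 8 could be tested, 6 of them rose, *Clcn1* included, and 1 fell, beside 40.1% and 39.7% of all genes tested. Their median log2 fold change was 0.49. *Clcn7*, the lysosomal exchanger, rose from 55.2 to 84.2 CPM, a log2 fold change of 0.61 (adjusted p = 1.01e-08). *Clcn6*, found in late endosomes, rose from 35.0 to 53.4 CPM by the same 0.61 (adjusted p = 1.75e-07). *Clcn4-2*, an intracellular exchanger, rose by 0.37 (adjusted p = 8.36e-07), all by edgeR's test.

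*Clcn2*, a widely expressed plasma membrane channel, rose from 5.00 to 6.28 CPM, by 0.33 (adjusted p = 0.0216). Without day 6 replicates 1 and 2 it no longer passed, at 0.26 (adjusted p = 0.119). *Clcn3*, an endosomal exchanger, fell from 66.4 to 48.9 CPM, a log2 fold change of -0.44 (adjusted p = 0.000795, edgeR). It was lowest in day 6 replicates 1 and 2, at 41.7 and 38.2 CPM, against 53.5 to 57.1 CPM in the others. The log2 fold change of *Clcn3* was -0.26 (adjusted p = 0.000257, edgeR) without these replicates and -0.69 (adjusted p = 1.39e-09) without replicates 3, 4 and 5. *Clcn5* did not pass the test, with 234 and 220 CPM and a log2 fold change of -0.09 (adjusted p = 0.144), but it did at -0.15 (adjusted p = 0.0168) without day 6 replicates 3, 4 and 5.

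Genes around these channels were described by lists, since sodium that enters must be pumped out and channels are anchored and modified by other proteins. Of 10 sodium pump genes 8 were tested, 5 rose (40.1% over all genes tested) and 1 fell (39.7%). The median log2 fold change was 1.17. *Fxyd5*, a regulator of the pump, fell from 34.2 to 4.83 CPM, a log2 fold change of -2.85 (adjusted p = 7.48e-07, edgeR).

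Of 16 genes for sodium channel partners 14 were tested, 9 rose (40.1% over all genes tested) and 4 fell (39.7%). The median was 0.74. *Fgf13*, a cytoplasmic protein that binds sodium channels, went from 0 to 294 counts in all, at least 103-fold higher (adjusted p = 2.42e-09, edgeR), while *Calm2*, 1 of the calmodulin genes, fell from 408 to 174 CPM (log2 fold change -1.23, adjusted p = 1.51e-12).

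Of 10 genes for partners and regulators of ClC proteins 8 were tested, 5 rose (40.1% over all genes tested) and 3 fell (39.7%). The median was 0.31. *Crbn*, cereblon, rose from 24.4 to 58.9 CPM (log2 fold change 1.27, adjusted p = 1.71e-12) and *Ddb1* from 1064 to 1337 CPM (0.33, adjusted p = 2.92e-05), and *Cul4b* fell from 87.4 to 61.8 CPM (-0.50, adjusted p = 6.38e-07). All 3 encode parts of a ubiquitin ligase.

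The list drawn as splicing regulators of the *CLCN1* transcript held 7 genes linked to myotonic dystrophy, in which ClC-1 splicing is altered in human muscle. Of these, *Dmpk* and *Cnbp* are the genes that carry the repeat expansions of the disease and are not themselves such regulators. All 7 were tested, 3 rose (40.1% over all genes tested) and 3 fell (39.7%), with a median of -0.04. *Celf2* rose from 104 to 239 CPM (log2 fold change 1.19, adjusted p = 4.47e-14), *Mbnl3* fell from 21.4 to 6.25 CPM (-1.79, adjusted p = 1.24e-09) and *Cnbp* fell from 469 to 263 CPM (-0.83, adjusted p = 1.68e-11, edgeR). Gene counts do not show splicing.

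Of 22 other chloride channel genes 15 were tested, 6 rose (40.1% over all genes tested) and 8 fell (39.7%). The median was -0.48. *Best1*, a calcium-activated chloride channel known from the retinal pigment epithelium, rose from 0.300 to 10.2 CPM (log2 fold change 5.04, SE 0.247, adjusted p = 1.78e-12), and its mean of 4.89 FPKM on day 6 was above the 0.534 FPKM of *Clcn1*. *Ano1*, a calcium-activated chloride channel, fell from 5.23 to 0.954 CPM (-2.46, adjusted p = 8.58e-09), and *Ano6*, a lipid scramblase of the same family and the gene of highest CPM in the list, fell from 316 to 227 CPM (-0.48, adjusted p = 4.87e-07, edgeR).

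**Figure D4:**
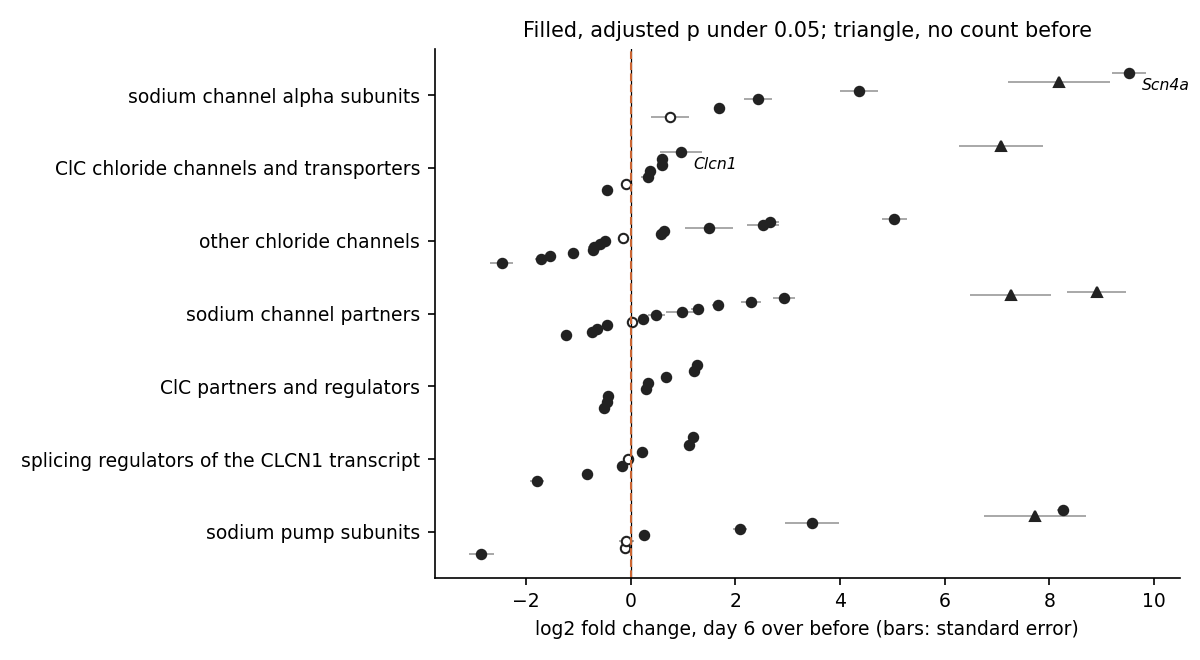
Log2 fold change of day 6 over before (x axis, bars are the standard error) for the tested genes of 7 lists (y axis). Filled symbols have an adjusted p under 0.05, triangles had no count before differentiation, so that their position depends on the fit, and the dashed line is the median of all genes tested, 0.0147. *Scn4a* lies far from the line, at 9.52, and *Clcn1* at 0.96.

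Several of these genes are also known from nerve, so markers of nerve and other cell types were read beside them. Over all genes tested 40.1% rose and 39.7% fell. Of 6 neuron markers *Rbfox3*, *Snap25* and *Gad1* had no counts. *Syt1* had 20 counts before and 15 on day 6, and *Slc17a7* had 16 and 32, with 13 and 16 in day 6 replicates 1 and 2. *Stmn2*, the 1 that could be tested, fell from 110 to 20.4 CPM (log2 fold change -2.43, adjusted p = 1.29e-15, edgeR). The list's sum, most of it *Stmn2*, went from 107 to 114 CPM down to 18.8 to 25.2 CPM. Of 6 cardiac markers 4 were tested, and 2 rose and 2 fell. *Myh6*, the cardiac alpha myosin heavy chain, went from 0 to 1378 counts in all, whereas *Myl7* had none in any library and *Nppa* had 5 before and 3 on day 6. The cardiac list summed to 3.51 to 6.52 CPM before and, on day 6, to 26.1 and 32.8 CPM in replicates 1 and 2 and 14.9 to 17.98 CPM in the others. Of 5 adipocyte markers 2 were tested, *Cebpa* higher (1.34) and *Pparg* lower (-1.21), at sums of 27.5 to 32.8 and 27.7 to 36.6 CPM. Of 5 markers of quiescent satellite cells 4 were tested, 2 higher, led by *Spry1* (4.73), and 2 lower, led by *Myf5* (-1.004), with sums of 54.7 to 61.0 CPM before and 91.7 to 122 CPM on day 6, and *Calcr* had no counts. The part of such cells in the channel values was not tested.

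Across the 10 libraries the genes whose log2(CPM + 1) followed *Scn4a* most closely were *Cap2*, *Ckm* and *Trim63*, with Pearson's r of 0.9995, 0.9995 and 0.9994. *Ckm* is the muscle creatine kinase and *Trim63* a muscle ubiquitin ligase. Since 28.6% of 10501 genes compared had an r above 0.9 with *Scn4a*, and the points fall into the groups before and day 6, these are a description of shared order only. For *Clcn1* the closest were *Zfp715* (0.9234), *Rcbtb2* (0.8934) and *Srek1ip1* (0.8895), and 1 of 10502 genes had an r above 0.9. *Scn8a* and *Scn4b* have too few counts for such a comparison.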

How the data were processed

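RNA-seq libraries of C2C12 cells, 5 before differentiation and 5 differentiating, were grouped by the stage in the labels, and the day was taken from the paper. The authors filtered reads with Trimmomatic, aligned them to mm10 (STAR 2.5), and obtained gene counts from uniquely mapped reads (HTSeq 0.6.1, strand setting not given in the sources used here). The labels and the paper name different versions of the library kit, and only the paper's is strand-specific. The deposited counts are raw. The deposited FPKM values divide those counts by the length column and the library total, which held within 0.001 (relative) for all 172484 values above 0.

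Counts were fitted in R 4.3.3 with edgeR 4.0.16 (filterByExpr, TMM, robust quasi-likelihood test, condition alone), which tested 13085 genes, with Benjamini-Hochberg adjustment over all of them and a threshold of 0.05. The study's methods used DESeq2. Standard errors were derived by dividing the absolute log2 fold change by the root of the F statistic, and at few counts it can understate counting error. Shares of summed FPKM were compared by exact two-sided permutation over libraries. A floor of 3 counts over 5 libraries was used for lower bounds. The test was checked on simulated counts. No 2 libraries agreed within sampling noise.

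Members and the 14 lists (122 entries) were chosen with earlier results of these data known, as was the naming rule: the 4 members, the sodium channel and ClC family genes, and of each other list the most abundant and the most changed genes, plus the 3 genes of at least 5 CPM closest to each member. Alternatives were DESeq2 1.42.0, other scaling factors, other filters, limma 3.58.1 on log2(FPKM + 0.1) and log2(FPKM + 1), a replicate block and libraries left out. A few genes of these lists, counted in the lists' totals, are not reported here.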

Additional observations from a re-analysis of the deposited data

Results flagged for a closer look

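The level of *Clcn5* before differentiation was 217.4 CPM in replicate 5, apart from 235.2 to 240.5 CPM in the other 4 libraries of that group, and the gap exceeded Dixon's 95% critical value for 5 samples. This was 1 of 34 groups of 5 libraries examined, and chance alone gives about 1 in 20.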

How the results depend on the processing

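*Scn4a* stayed higher on day 6 and past the threshold under every alternative run, with log2 fold changes from 4.07 (limma on log2(FPKM + 1)) to 10.7, and from 9.23 to 10.05 with single libraries left out. The *Clcn1* log2 fold change lost its call with limma at 0.68 (adjusted p = 0.0894, pseudocount 0.1) and 0.25 (0.0714, pseudocount 1), without day 6 replicates 1 and 2 at 0.55, without replicates 2 and 3 before differentiation at 0.87 (adjusted p = 0.152), and in 7 of 10 fits with 1 library left out, which ranged from 0.76 to 1.21. It was not tested under the filter that asks for 5 CPM in 5 libraries. The difference in share of *Clcn1* was 0.53 percentage points without day 6 replicates 3, 4 and 5. Its exact permutation p of 0.0476, not adjusted, was the smallest that these numbers of libraries allow.

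Fewer genes were tested under the 5 CPM filter, and 2 alpha subunits were higher. With DESeq2, with no filter, and without day 6 replicates 3, 4 and 5, 1 alpha subunit (*Scn9a*) was lower. Without day 6 replicates 3, 4 and 5, 2 ClC genes were lower. With 1 library left out the alpha subunits higher were 5 or 6 and the ClC genes higher 5 to 7. Of 850 values of other named genes, 839 kept their direction and call.

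Samples of the same number did not deviate together (r from -0.0609 to 0.0288), so no pairing by number was seen. These correlations do not establish that the samples were unpaired. With the replicate block the *Scn4a* and *Clcn1* log2 fold changes were 9.53 and 0.93, and the *Scn4a* share (51.8) kept its size with an exact p of 0.0625, the smallest that 5 pairs allow. *Scn8a* and *Scn4b* are limited by depth. *Clcn1* had 91 counts before and 173 on day 6. The ratio of these sums, each over its group's scaled total, was 1.99, with a 95% counting interval of 1.54 to 2.6. That interval covers counting error only and leaves out the spread between libraries, from 0.646 to 2.92 CPM on day 6. The cause of this spread was not tested.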
